A study of Mus musculus with 15 samples.

Results

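The genes described are 10 transcripts used as markers of the liver sinusoidal endothelium (Stab1, Stab2, Clec4g, Lyve1, Pecam1, Kdr, Oit3, Gpr182, Cdh5 and Rspo3). They were taken by symbol from the 26839 genes of the 3 deposited count tables joined. They were chosen with earlier results of these data known. All 10 were found in every table, and all 10 passed the filter on low counts in every fit, with counts from 49 to 2168 per library. RNA from whole liver of male C57BL/6J mice had been sequenced in 15 libraries, 3 in each of 5 groups, after 16 weeks of diet. Since no label states that each library is its own mouse, p-values refer only to the spread between libraries, which may be technical. No age is given for the mice in the labels.

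The chow GFP group ate standard chow and the other 4 groups ate the FPC diet with sugar water that gives non-alcoholic steatohepatitis (NASH). All groups carried an adeno-associated virus (AAV) vector. In the chow GFP and NASH GFP groups it expressed green fluorescent protein, and in the NASH Activin A group it expressed Activin A, both from the thyroxine binding globulin (TBG) promoter, which is active in hepatocytes. In the NASH Gpnmb hairpin group an H1 promoter drove a short hairpin RNA against Gpnmb, a membrane glycoprotein of lipid-laden macrophages, and the NASH scramble group received a scrambled hairpin. The study compared NASH GFP with chow GFP (diet), NASH Activin A with NASH GFP, and NASH Gpnmb hairpin with NASH scramble. The first 2 comparisons share the NASH GFP libraries.

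Liver sinusoids are lined by a fenestrated endothelium with little basement membrane, which clears waste macromolecules from blood through scavenger and lectin receptors and takes up hyaluronan. In chronic liver injury this endothelium is known to lose fenestrae and to take on features of ordinary capillaries, a change called capillarization. Sinusoidal and central vein endothelial cells also send angiocrine signals to hepatocytes, among them R-spondin 3, which strengthens Wnt signalling around the central vein.

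The members have different roles. Stab1 (chr14:31139013-31168641) and Stab2 (chr10:86841198-87008025) encode stabilin scavenger receptors, and Stab2 is the main hyaluronan clearance receptor of the sinusoid. Lyve1 (chr7:110850607-110863239) encodes a second hyaluronan receptor, found on sinusoidal and lymphatic endothelium and on some tissue macrophages. Clec4g (chr8:3707064-3720651) encodes the lectin LSECtin, Oit3 (chr10:59422958-59441778) a secreted zona pellucida domain protein, and Gpr182 (chr10:127747276-127751732) an atypical receptor that binds chemokines. Kdr (chr5:75932827-75978458) encodes the main signalling receptor for vascular endothelial growth factor (VEGF). Pecam1 (chr11:106654217-106750628) and Cdh5 (chr8:104101625-104144511) encode the adhesion molecules CD31 and VE-cadherin, which all endothelium carries. Rspo3 (chr10:29452416-29535867) encodes R-spondin 3. All are protein-coding genes, and positions are as in the deposited tables, on GRCm38 per the submitters' processing notes.

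The stretch just upstream of the start site was read for the members that RefSeq (GRCm38.p6) lists by symbol in the table used, which were 4 of 10 (Stab1, Stab2, Clec4g and Kdr). Shown 5′ to 3′ are the 250 bases before the start of 3 members with different patterns below, Stab1 (higher in the NASH scramble than in the chow libraries), Clec4g (higher under Activin A) and Kdr (called in no comparison). Capitals mark AGGAAG or CGGAAG on either strand, core letters of the ETS factors that endothelial genes commonly use.
Stab1, minus strand, chr14:31168642-31168891: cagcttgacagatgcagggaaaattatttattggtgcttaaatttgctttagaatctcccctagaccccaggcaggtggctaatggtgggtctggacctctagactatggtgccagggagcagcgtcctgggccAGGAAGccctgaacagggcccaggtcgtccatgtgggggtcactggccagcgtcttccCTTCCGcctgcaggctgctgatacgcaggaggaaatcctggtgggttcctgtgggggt
Clec4g, minus strand, chr8:3720652-3720901: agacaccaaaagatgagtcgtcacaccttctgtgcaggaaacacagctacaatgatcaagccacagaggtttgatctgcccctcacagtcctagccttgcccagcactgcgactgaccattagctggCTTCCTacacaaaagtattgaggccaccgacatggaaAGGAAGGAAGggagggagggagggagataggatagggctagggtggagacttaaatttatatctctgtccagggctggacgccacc
Kdr, minus strand, chr5:75978456-75978705: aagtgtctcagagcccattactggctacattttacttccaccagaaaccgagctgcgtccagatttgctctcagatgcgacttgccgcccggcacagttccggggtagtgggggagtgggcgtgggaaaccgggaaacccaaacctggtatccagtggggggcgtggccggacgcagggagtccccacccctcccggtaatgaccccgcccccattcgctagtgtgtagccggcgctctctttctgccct
The Stab1 window held 1 AGGAAG and 1 CGGAAG, the Clec4g window 3 AGGAAG (2 of them sharing letters) and the Kdr window none of either. At least 1 of the 2 motifs was present in 39.2% of the 32851 RefSeq windows of 250 bases. AGGAAG was in 29.5% and CGGAAG in 13.6%, each with or without the other. The GATA letters AGATAA (reverse TTATCT) were in none of the 4 members' windows and in 9.99% of all. These matches describe letters only.

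Library totals ran from 15276879 to 23467867 counts. Summed hepatocyte markers (5 of 6 listed genes found) ran from 54565 to 110860 CPM (counts scaled to a common library total) over the 15 libraries, so the defining transcripts of liver were abundant. Levels below are CPM scaled with TMM factors over all 15 libraries. Gpnmb, the target of the hairpin, was at 31.4 ± 5.05 CPM (SD, n = 3) in the NASH scramble libraries and 2.02 ± 1.13 CPM in the Gpnmb hairpin libraries, with no overlap. Inhba, the gene for the Activin A subunit, was at 8.05 ± 0.114 CPM in NASH GFP and 24.9 ± 0.924 CPM in NASH Activin A (SD, n = 3).

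Per kilobase of the gene length in the tables, the mean over all 15 libraries was highest for Clec4g at 14.7 CPM per kilobase and lowest for Rspo3 at 2.08. Between them came Oit3 at 9.44, Stab2 at 7.11, Gpr182 at 6.85, Cdh5 at 6.61, Stab1 at 6.17, Kdr at 4.83, Lyve1 at 4.69 and Pecam1 at 3.70 CPM per kilobase. The chow GFP group had the lowest mean of the 5 groups for 9 of the 10 members. Clec4g was the exception, with its lowest mean in the Gpnmb hairpin group and its chow mean in the middle. Of the 40 pairs of neighbouring groups in these orders (4 per gene), 9 did not overlap. These were chow below the next group for Stab1, Pecam1 and Cdh5, scramble above the next group for Stab1 and Oit3, Activin A above the next group for Clec4g and Gpr182, Activin A below the Gpnmb hairpin for Lyve1, and the Gpnmb hairpin below Activin A for Pecam1. All other neighbours overlapped in their libraries. The share of such pairs over all genes was not computed, so these orders are a description only.

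**Figure D1:**
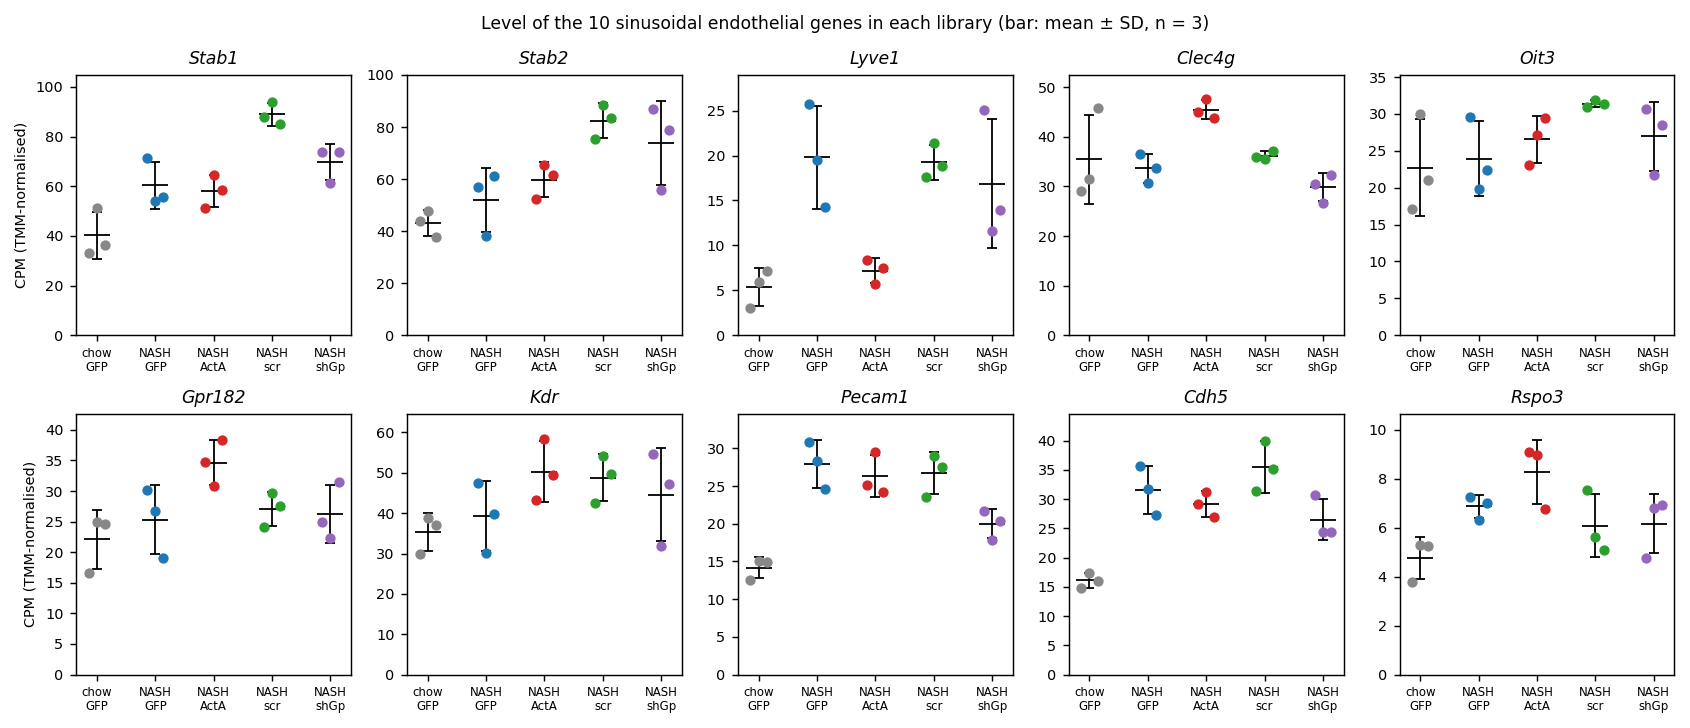
Level of each gene in the 15 libraries, in TMM-normalised CPM on a linear axis from 0 (points: libraries; bar: mean ± SD, n = 3; ActA, Activin A; scr, scramble; shGp, Gpnmb hairpin). Lyve1 sits at 2.98 to 8.41 CPM in the chow and Activin A libraries and at 11.6 to 25.7 CPM in the other 9.

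Between chow and the NASH diet, the hyaluronan receptor Lyve1 and the junction genes Pecam1 and Cdh5 rose, and no member fell. Lyve1 rose about 3.81-fold Pecam1 about 2.02-fold and Cdh5 about 2.01-fold, while the lectin Clec4g, the receptors Kdr and Gpr182, and Oit3 had log2 differences of 0.24 or less. In edgeR's quasi-likelihood test 3 of the 10 members were called higher at an adjusted p under 0.05, beside 11.2% of the 14388 genes tested. The median log2 fold change of the members was 0.44, against -0.01 for all genes tested.

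Lyve1 was at 2.98, 5.97 and 7.17 CPM in the chow libraries and at 25.7, 19.5 and 14.3 CPM in the NASH GFP libraries. Every NASH library was above every chow library. Its log2 fold change was 1.93 ± 0.32 (SE; edgeR adjusted p = 0.00261).

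Cdh5, the adherens junction cadherin, was at 14.9, 17.4 and 16.1 CPM on chow and 35.6, 31.8 and 27.3 CPM in NASH GFP. Pecam1 was at 12.6, 15.0 and 15.0 CPM on chow and 30.9, 28.3 and 24.6 CPM in NASH GFP. Neither gene's groups overlapped, and the fitted log2 fold changes were 1.01 ± 0.16 for Cdh5 (SE; edgeR adjusted p = 0.00241) and 1.01 ± 0.16 for Pecam1 (adjusted p = 0.00233). The calls of Lyve1, Pecam1 and Cdh5 held under every alternative run, including without any single library.

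The stabilins lay lower on this scale. Stab1 was at 33.2, 51.1 and 36.3 CPM on chow and at 71.3, 54.1 and 55.7 CPM in NASH GFP, with no overlap but a chow library close to the NASH ones. Its log2 fold change of 0.62 ± 0.19 (SE) missed the threshold (edgeR adjusted p = 0.0506), and it passed with DESeq2 (adjusted p = 0.0353) and without chow library 2 (adjusted p = 0.0195). Stab2 overlapped between the groups, at 44.1, 47.6 and 37.6 CPM on chow and 56.9, 38.2 and 61.1 CPM in NASH GFP (log2 fold change 0.31 ± 0.19, edgeR adjusted p = 0.331).

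Clec4g was at 29.0, 31.6 and 45.8 CPM on chow and 36.6, 30.7 and 33.8 CPM in NASH GFP, a log2 fold change of -0.04 ± 0.18 (edgeR adjusted p = 0.927). Its sign turned with library size as the only scaling (0.23) and without chow library 3 (0.17). Kdr was at 29.9, 38.7 and 37.1 CPM on chow and 47.5, 30.2 and 39.9 CPM in NASH GFP (0.19 ± 0.19, adjusted p = 0.553). The groups overlapped for both genes, and also for Gpr182 (0.24 ± 0.22) and Oit3 (0.11 ± 0.23). Rspo3, the ligand, was at 3.77, 5.29 and 5.24 CPM on chow and 7.27, 6.33 and 6.99 CPM in NASH GFP, without overlap, at 0.57 ± 0.23 (edgeR adjusted p = 0.133). In all, 5 of the 10 members had libraries that did not overlap, beside 35.0% of all genes tested.

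With library size alone as the scaling, the all-gene median of the diet comparison moved to 0.24 (log2) and the share of calls that were higher from 65.7% to 86.8%. Relative to that shift, Clec4g at 0.23 lay at the middle of all genes. In that setting 5 members were called, beside 2668 genes called higher in place of 1607.

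**Figure D2:**
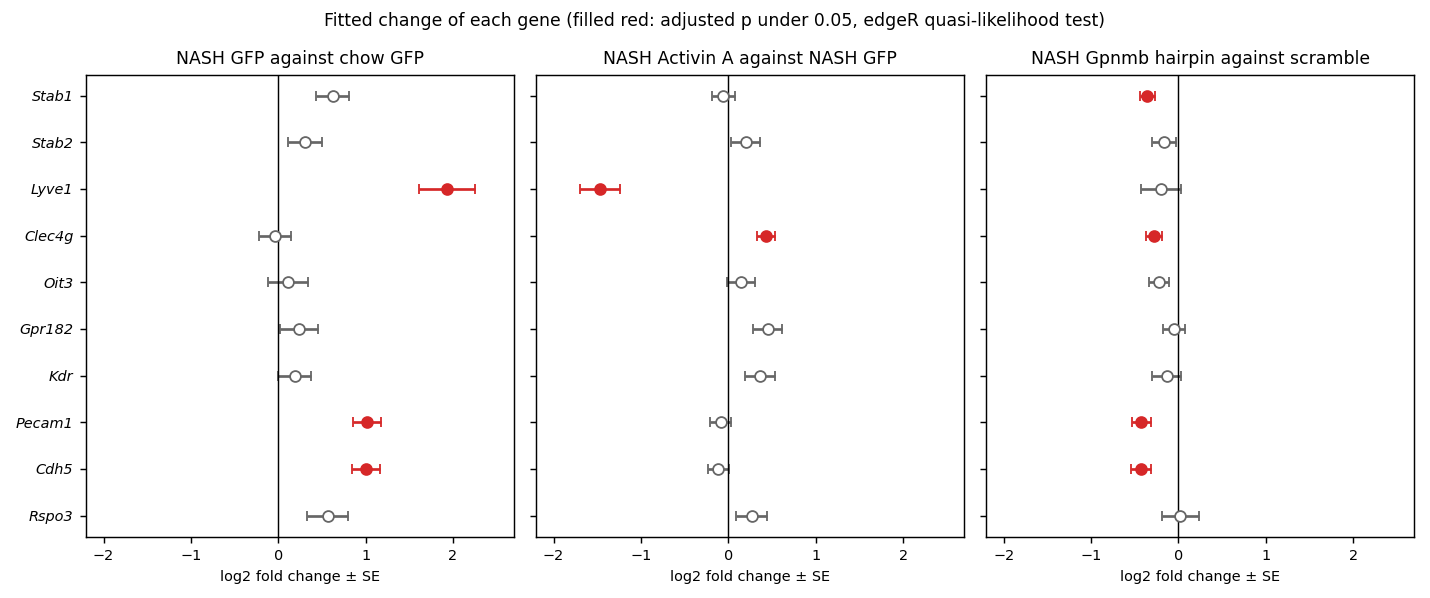
Log2 fold change ± SE (edgeR) of the 10 genes in the 3 comparisons, on one axis; filled red points have an adjusted p under 0.05. Lyve1 is at 1.93 in the diet comparison and -1.47 under Activin A, and the lowest value under the Gpnmb hairpin is that of Cdh5 at -0.43.

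A second group on the NASH diet, the scramble libraries, was set against the same chow libraries in a fit of all 15 libraries joined. The vector differs as well as the diet, so the 2 cannot be told apart here, and the chow libraries are those used above. By edgeR 5 of 10 members were called higher (Stab1, Stab2, Lyve1, Pecam1 and Cdh5), beside 17.0% of 15665 genes tested. Both stabilins were among them. Stab1 was at 88.0, 94.1 and 84.9 CPM in the scramble libraries, above all 12 others, and its log2 fold change against chow was 1.15 ± 0.15 (SE; edgeR adjusted p = 2.45e-05). Stab2 was at 75.4, 88.6 and 83.3 CPM, a log2 fold change of 0.94 ± 0.18 (adjusted p = 0.000567). Lyve1 at 17.6, 21.4 and 18.9 CPM differed from chow by 1.85 ± 0.31, Cdh5 by 1.14 ± 0.14 and Pecam1 by 0.92 ± 0.13 on the log2 scale. Clec4g was at 35.9, 35.5 and 37.2 CPM, inside the range of the chow libraries (0.03 ± 0.14, adjusted p = 0.888).

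The difference between the 2 NASH control groups was tested in the same joined fit. By edgeR 0 of 10 members were called, beside 0.741% of all genes called. An unadjusted p under 0.05 was reached by 3 members, with no share of all genes computed at that threshold. DESeq2 called 2 members, beside 195 genes called higher and 360 lower. Stab2 was higher in scramble by 0.66 ± 0.17 (edgeR adjusted p = 0.0759, DESeq2 adjusted p = 0.015) and Stab1 by 0.56 ± 0.15 (edgeR adjusted p = 0.08, DESeq2 adjusted p = 0.0205) on the log2 scale. Lyve1 differed by -0.04 ± 0.28, Pecam1 by -0.06 ± 0.13 and Cdh5 by 0.17 ± 0.13. Against chow, library size alone moved the median of all genes to 0.30 and the higher share of calls from 49.4% to 84.1%. It called 10 of 10 members, beside 5160 genes called higher in place of 2660.

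Under Activin A on the NASH diet, Lyve1 fell and the lectin gene Clec4g rose, and the other 8 members did not pass the test. Lyve1 fell about 2.76-fold to near the chow range. By edgeR's quasi-likelihood test 1 of 10 members was called higher, beside 1.66% of 14598 genes tested, and 1 of 10 lower, beside 3.86%. The median log2 fold change of the members was 0.17, against 0.00 for all genes.

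Lyve1 was at 8.41, 5.65 and 7.49 CPM in the Activin A libraries, all below the lowest NASH GFP library at 14.3 CPM. Its log2 fold change was -1.47 ± 0.23 (SE; edgeR adjusted p = 0.00721), and the call held in every alternative run. Against chow, in the joined fit, the Activin A libraries differed by 0.43 ± 0.32 for Lyve1 (edgeR adjusted p = 0.366). That fit shares its libraries with the comparisons above.

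Clec4g was at 45.0, 47.6 and 43.9 CPM under Activin A and 36.6, 30.7 and 33.8 CPM in NASH GFP. The groups did not overlap, and the log2 fold change was 0.43 ± 0.10 (SE; edgeR adjusted p = 0.0389). The gene no longer passed when each Activin A library was left out in turn (adjusted p from 0.123 to 0.151), or without NASH GFP library 2 (0.0869), with library size alone (0.0886) and in the fit of all 15 libraries (0.0795).

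Gpr182, the chemokine-binding receptor, was at 34.7, 30.9 and 38.4 CPM under Activin A and 30.2, 26.7 and 19.1 CPM in NASH GFP. Its libraries did not overlap, but the difference of 0.45 ± 0.16 did not pass (edgeR adjusted p = 0.155). Only Lyve1, Clec4g and Gpr182 separated the groups, 3 of 10 members beside 25.9% of all genes tested. Kdr was at 43.1, 58.4 and 49.4 CPM (0.36 ± 0.17, adjusted p = 0.277) and Rspo3 at 9.07, 8.96 and 6.77 CPM (0.27 ± 0.18, adjusted p = 0.47). The junction genes overlapped between the groups, with Pecam1 at 25.1, 29.5 and 24.3 CPM (-0.09 ± 0.12) and Cdh5 at 29.2, 31.3 and 26.9 CPM (-0.12 ± 0.12). Stab1 (-0.06 ± 0.13), Stab2 (0.20 ± 0.17) and Oit3 (0.15 ± 0.16) overlapped with NASH GFP as well.

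Set against chow in the joined fit, the Activin A libraries had 5 of 10 members called higher by edgeR, beside 11.8% of all genes. Pecam1 was higher by 0.89 ± 0.13, Cdh5 by 0.86 ± 0.14, Rspo3 by 0.80 ± 0.21, Gpr182 by 0.65 ± 0.18 and Stab1 by 0.53 ± 0.15 on the log2 scale. Without chow library 1 only 2 members were called, since Stab1 (adjusted p = 0.0817), Gpr182 (0.0754) and Rspo3 (0.0556) no longer passed. Library size alone called 8 of 10, beside 3414 genes called higher in place of 1854. The median of all genes was then at 0.21 and the higher share of calls at 78.0% in place of 50.0%.

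With the hairpin against Gpnmb, the scavenger receptor gene Stab1, the junction genes Pecam1 and Cdh5, and Clec4g fell by modest amounts, and no member rose. By edgeR 4 of 10 members were called lower, beside 12.0% of 14845 genes tested. The median log2 fold change of the members was -0.21, against 0.00 for all genes. With library size alone the latter moved to -0.105, with the higher share of calls at 29.1% in place of 50.3%. That setting called 4 members, beside 2460 genes called lower in place of 1788. In 5 of 10 members (Stab1, Pecam1, Cdh5, Clec4g and Oit3) the libraries did not overlap, all lower, beside 40.8% of all genes tested.

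Stab1 was at 73.8, 61.4 and 73.9 CPM with the hairpin and 88.0, 94.1 and 84.9 CPM with scramble. The hairpin libraries all lay below the scramble libraries, and the log2 fold change was -0.36 ± 0.08 (SE; edgeR adjusted p = 0.0120). This call held without each single library, and was lost in the fit of all 15 libraries (adjusted p = 0.139).

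Cdh5 was at 30.7, 24.5 and 24.4 CPM with the hairpin and 31.3, 40.0 and 35.2 CPM with scramble (-0.43 ± 0.12, edgeR adjusted p = 0.0241). Pecam1 was at 21.7, 17.9 and 20.4 CPM with the hairpin and 23.6, 29.0 and 27.6 CPM with scramble (-0.42 ± 0.11, adjusted p = 0.0174). For Cdh5 the gap between the groups was narrow, between hairpin library 1 and scramble library 1. Without hairpin library 2, scramble library 2 or scramble library 3 neither gene passed, with adjusted p from 0.0643 to 0.0984, and Cdh5 also did not pass without hairpin library 3 (0.0717). Clec4g was at 30.6, 26.7 and 32.3 CPM against 35.9, 35.5 and 37.2 CPM, and its call (-0.28 ± 0.09, edgeR adjusted p = 0.0407) was lost with DESeq2 (0.0511), in the fit of all 15 libraries (0.221) and without each library but hairpin library 3.

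Lyve1 did not pass in this comparison and was spread widely among the hairpin libraries, at 25.1, 11.6 and 14.0 CPM against 17.6, 21.4 and 18.9 CPM with scramble. One hairpin library was above all scramble libraries and 2 were below them. The log2 fold change was -0.20 ± 0.23 (edgeR adjusted p = 0.566). Without hairpin library 1 it was -0.60 (adjusted p = 0.0104), and without hairpin library 2 it was 0.01.

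Stab2 (-0.16 ± 0.14), Kdr (-0.14 ± 0.16), Oit3 (-0.23 ± 0.12), Gpr182 (-0.05 ± 0.13) and Rspo3 (0.02 ± 0.21) did not pass. Hairpin library 2 was the lowest of its group for Stab1, Stab2, Clec4g, Lyve1, Pecam1, Kdr, Oit3 and Gpr182, and without it the signs of Stab2, Kdr and Gpr182 turned (0.00, 0.06 and 0.06). Rspo3 turned to -0.08 with library size alone.

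Compared with chow in the joined fit, where the vector differs too, the hairpin libraries had 5 of 10 members called higher by edgeR, beside 12.2% of all genes. These were Lyve1 (1.66 ± 0.31), Stab1 (0.80 ± 0.15), Stab2 (0.78 ± 0.18), Cdh5 (0.72 ± 0.14) and Pecam1 (0.50 ± 0.13). Library size alone gave 7 of 10, beside 3702 genes called higher in place of 1916. The median of all genes was then 0.22, with 76.0% of calls higher in place of 47.2%.

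Whether the 2 interventions differed in their effect was tested as a contrast in the joined fit. By edgeR 0 of 10 members were called, beside 4.04% of all genes called. An unadjusted p under 0.05 was reached by 2 members, again with no share of all genes computed at that threshold. DESeq2 called 2 members, beside 451 genes called higher and 533 lower. The Activin A effect minus the hairpin effect was 0.71 ± 0.20 for Clec4g (edgeR adjusted p = 0.0534, DESeq2 adjusted p = 0.0205) and -1.27 ± 0.41 for Lyve1 (edgeR adjusted p = 0.103, DESeq2 adjusted p = 0.0469). For the other 8 members the difference lay between 0.24 and 0.50, with adjusted p of 0.347 or more.

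In bulk RNA, fewer endothelial cells and less of a transcript per cell cannot be told apart. Each member was therefore also set against 24 pan-endothelial genes (Tie1, Tek, Eng, Emcn and others), as its log2 CPM minus their mean in the same library. These values are a description. The mean of the 24 genes was itself 2.45, 2.87 and 2.75 log2 CPM in the chow libraries and 3.39, 3.33 and 3.02 in NASH GFP, a difference of 0.56 without overlap. It differed by 0.06 under Activin A, with overlap, and by -0.34 with the Gpnmb hairpin, without overlap. With the median of the 24 genes in place of the mean, the differences were 0.43, 0.18 and -0.35, and the libraries overlapped in all 3 comparisons.

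Relative to the mean of the 24 genes, the members split in the diet comparison. Lyve1 was higher in NASH GFP by 1.35, Pecam1 by 0.41 and Cdh5 by 0.40. Clec4g was lower by 0.61, Oit3 by 0.47, Kdr by 0.42 and Gpr182 by 0.37, on the log2 scale. In each of these 7 genes the libraries did not overlap, beside 53.1% of all genes on the same relative scale. Stab1 (0.04), Stab2 (-0.31) and Rspo3 (-0.03) overlapped. Set against the median of the list, Lyve1 (1.48), Pecam1 (0.54), Cdh5 (0.53) and Clec4g (-0.48) still did not overlap, while Oit3 (-0.34), Kdr (-0.29) and Gpr182 (-0.23) did.

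Kdr illustrates the relative scale. It was at 2.46, 2.41 and 2.47 relative to the list in the chow libraries, and at 2.18, 1.59 and 2.30 in NASH GFP. In the scramble libraries it was at 2.16, 2.26 and 2.23, also below every chow library on this reference. Gpr182 was at 1.61, 1.78 and 1.88 on chow and 1.35, 1.39 and 1.38 in scramble, and Clec4g at 2.42, 2.12 and 2.77 on chow and 1.92, 1.65 and 1.81 in scramble. Against the median of the list, Clec4g alone of these 3 genes stayed below every chow library in both NASH control groups, which are set against the same chow libraries. Kdr and Gpr182 then overlapped with chow in both. Not every member repeated its NASH GFP pattern in scramble. Against the mean of the list, Oit3 overlapped with chow there, at 1.71 in its highest scramble library and 1.65 in its lowest chow library. Stab1, which overlapped in NASH GFP, lay above every chow library in scramble, at 2.999 or more against at most 2.81.

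Under Activin A, Clec4g was higher than in NASH GFP by 0.37 and Gpr182 by 0.41 relative to the list, and Lyve1 was lower by 1.49 and Cdh5 by 0.17. These 4 members did not overlap, beside 20.0% of all genes. Against the median of the list only Lyve1 (-1.61) did not overlap, and Clec4g (0.26), Gpr182 (0.29) and Cdh5 (-0.29) did. With the Gpnmb hairpin, Stab1 differed by -0.02, Pecam1 by -0.08, Cdh5 by -0.08 and Clec4g by 0.06, and all 4 overlapped once set against the list. Gpr182 (0.28) and Stab2 (0.16) were above the scramble libraries without overlap, 2 of 10 members beside 44.1% of all genes. Against the median of the list Stab2 (0.17) overlapped and Gpr182 (0.30) did not.

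**Figure D3:**
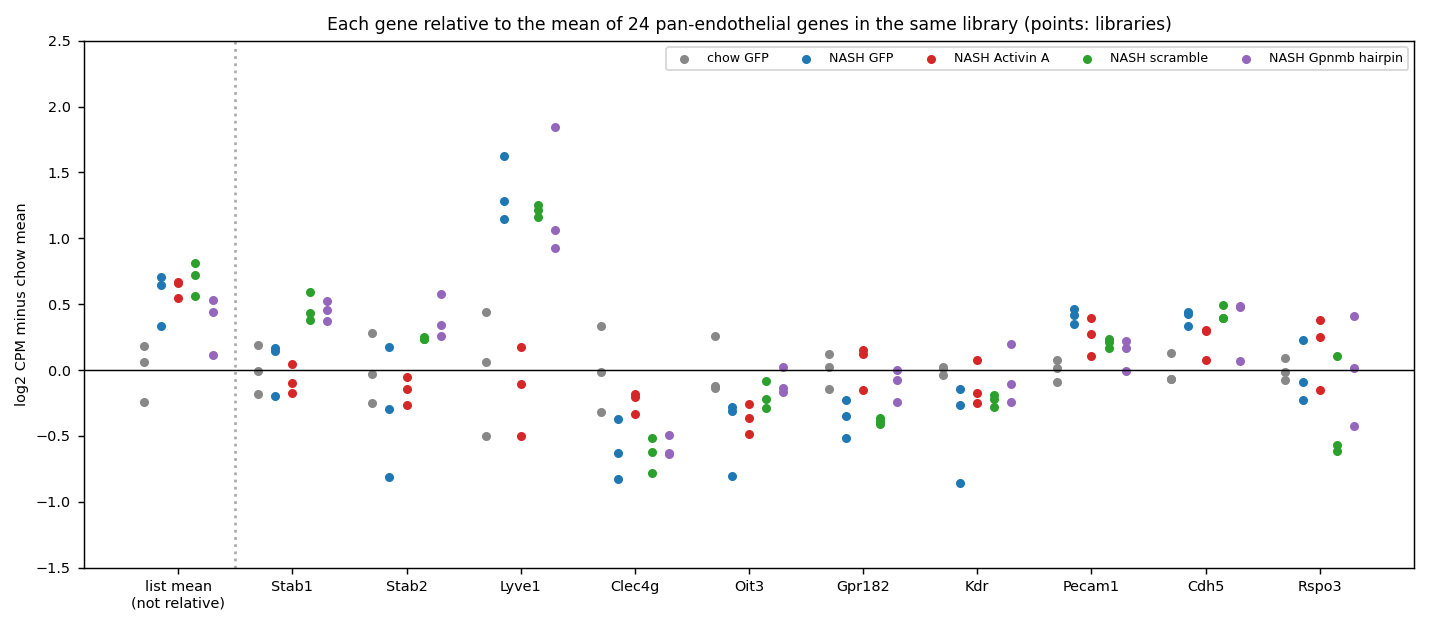
Each gene's log2 CPM minus the mean of 24 pan-endothelial genes in the same library, shown as the difference from the chow mean (points: libraries, coloured by group); the leftmost column is the list mean itself. In NASH GFP Lyve1, Pecam1 and Cdh5 lie above the chow libraries and Clec4g, Oit3, Kdr and Gpr182 below them; against the list's median, which is not drawn, Oit3, Kdr and Gpr182 overlap with chow.

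The genes whose pattern over the 15 libraries was nearest to each called member were found among 11786 genes, by the root mean square (RMS) difference in centred log2 CPM. The closest to Pecam1 were Pam (0.11), Cdh5 (0.13) and the ETS factor gene Elk3 (0.14), and to Cdh5 they were Pam (0.11), Ermp1 (0.12) and Lamb1 (0.12). Cdh5 was thus second of all genes for Pecam1, and Pecam1 sixth for Cdh5. For Stab1 the nearest were Sema6d (0.14), the mannose receptor gene Mrc1 (0.15), itself a sinusoidal scavenger receptor, and Lama4 (0.16), with Stab2 at 0.21. For Clec4g they were Dhrs1 (0.10), Pgp (0.11) and Cops7a (0.13), and for Lyve1 the hyaluronan receptor gene Cd44 (0.32), Hacd4 (0.37) and Cyp2c38 (0.37). The larger distances for Lyve1 go with its larger spread over libraries, an SD of 0.88 in log2 CPM against 0.25 for Clec4g. Libraries of a group share their treatment, and these distances are descriptions.

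Other genes of sinusoidal identity were followed beside the members. Of 14 tested, 2 were called higher by edgeR in NASH GFP, the lymphangiogenic VEGF receptor gene Flt4 (1.00 ± 0.24) and the transcription factor gene Maf (0.65 ± 0.16), and none lower. Under Activin A 0 of 14 were called by edgeR and 1 by DESeq2, with 6 at an unadjusted p under 0.05. With the Gpnmb hairpin 4 of 14 were lower, among them Il1a (-1.34 ± 0.27), Bmp2 (-0.43 ± 0.11) and Maf (-0.31 ± 0.08), and Ehd3 was higher (0.31 ± 0.07). The median log2 fold changes of this list were 0.40, 0.16 and -0.25 in the diet, Activin A and hairpin comparisons, where the members had 0.44, 0.17 and -0.21.

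Of the 24 pan-endothelial genes 6 were higher and none lower in NASH GFP, among them Rasip1 (1.39 ± 0.32), Fli1 (1.47 ± 0.38) and Sox18 (1.01 ± 0.25). By edgeR 0 of 24 were called under Activin A (0 by DESeq2, 2 at an unadjusted p under 0.05), and 5 were lower with the hairpin, among them Icam2 (-1.20 ± 0.25), Klf2 (-0.72 ± 0.14) and Egfl7 (-0.60 ± 0.14). Of the genes tied to capillarization and vascular endothelium, 7 of 13 were higher in NASH GFP, with Fabp4 (3.09 ± 0.43), Vcam1 (2.41 ± 0.18) and Cd34 (1.83 ± 0.36) leading. Under Activin A 3 of 13 were lower (Fabp5, Vcam1 and Icam1), and with the hairpin 6 of 14 were lower and Fabp5 was higher by edgeR. The Fabp5 libraries overlapped in the hairpin comparison, and DESeq2 called 0 genes of the list higher there. Several of these genes, such as Vcam1, Icam1 and the lipid carriers Fabp4 and Fabp5, are also made by macrophages or other cells.

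Around Kdr, 3 of 8 VEGF ligands and receptors were called higher in NASH GFP, Nrp2 (0.96 ± 0.16), Flt4 and Vegfb (0.64 ± 0.18). By edgeR 0 of 8 were called lower, and 1 by DESeq2. The ligand gene Vegfa was at -0.43 ± 0.14 (edgeR adjusted p = 0.0653). The list summed to 338.3 to 367.2 CPM on chow and 295.6 to 333.9 CPM in NASH GFP. Under Activin A 0 of 8 were called by edgeR (0 by DESeq2, 2 at an unadjusted p under 0.05), and with the hairpin the coreceptor gene Nrp1 alone was higher (0.47 ± 0.07). Around Rspo3, the R-spondin and Wnt list had Glul higher (0.62 ± 0.17) and Cyp1a2 (-1.56 ± 0.16), Lgr4 (-0.95 ± 0.16) and Notum (-0.72 ± 0.20) lower in NASH GFP, of 15 tested. Lgr4 encodes a receptor for R-spondins, and Glul and Cyp1a2 are hepatocyte genes of the central vein zone. Under Activin A Cyp1a2 was higher (0.49 ± 0.11), and with the hairpin 5 of 15 were lower, among them Sp5 (-1.57 ± 0.22), Nkd1 (-1.06 ± 0.15) and Glul (-0.62 ± 0.09), while Rspo3 was at 0.02 ± 0.21.

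Around Stab2 and Lyve1, the hyaluronan list had Cd44 (2.20 ± 0.31) and Hmmr (2.97 ± 0.58) higher in NASH GFP and the hyaluronan-linked inter-alpha-trypsin inhibitor chains Itih1 (-0.89 ± 0.17), Itih2 (-0.56 ± 0.17) and Itih3 (-0.87 ± 0.24) lower, of 9 tested. Cd44 (-1.40 ± 0.17) and Hmmr (-1.66 ± 0.38) were lower under Activin A, and with the hairpin Itih1, Itih2 and Itih3 were higher and Hmmr lower. Hmmr was low throughout, averaging 0.220 CPM on chow, 1.76 CPM in NASH GFP and 1.97 CPM with scramble. Around the stabilins, 6 of 11 scavenged ligands and other scavenger receptors were higher in NASH GFP, with Cd36 (2.79 ± 0.30), Spp1 (1.86 ± 0.29) and Msr1 (1.39 ± 0.22) leading. The same 3 were the ones lower under Activin A, and 7 of 11 were lower with the hairpin. Around Cdh5 and Pecam1, the junction partners had Jam2 higher in NASH GFP (0.97 ± 0.22), 1 of 9. By edgeR 0 of 9 were called under Activin A (1 by DESeq2) and 0 of 9 with the hairpin (0 by DESeq2), each with 1 at an unadjusted p under 0.05.

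**Figure D4:**
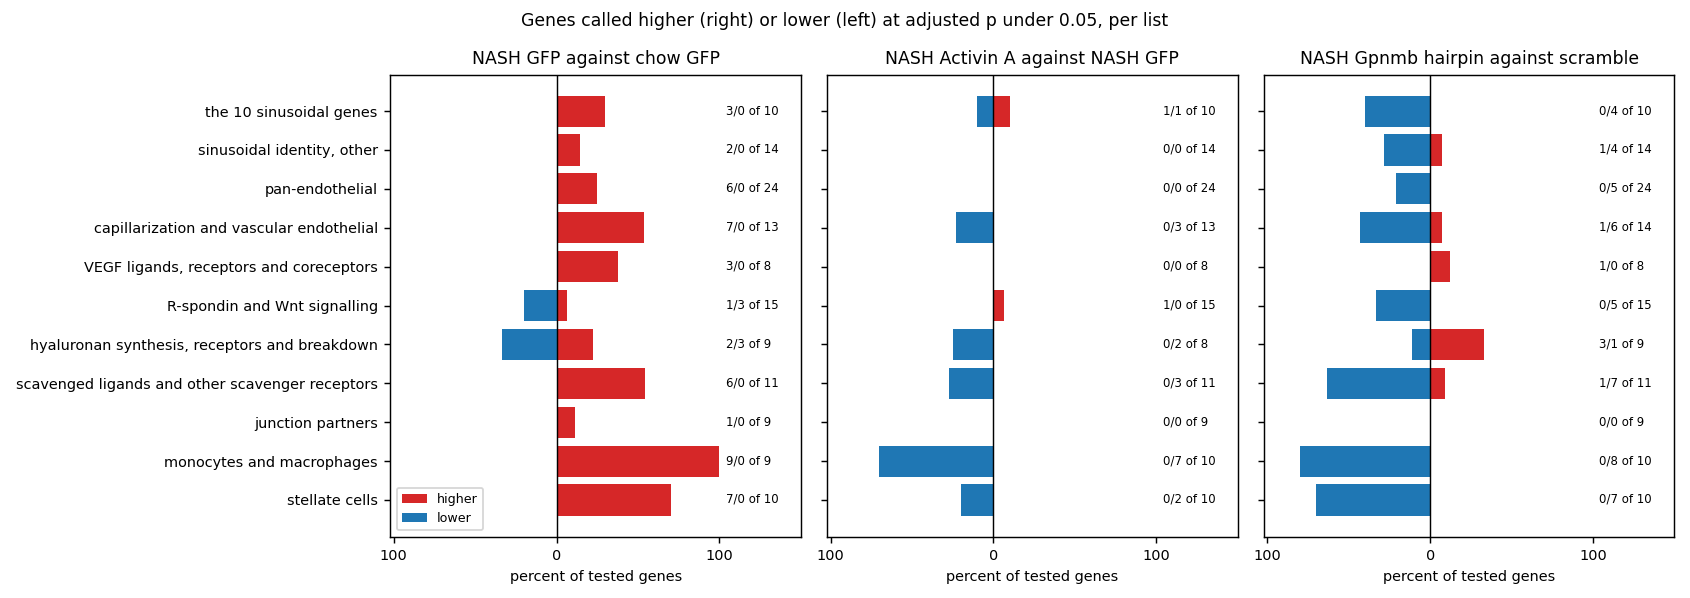
Percent of the tested genes of each list called higher (red, right) or lower (blue, left) by edgeR at an adjusted p under 0.05 in the 3 comparisons, with the counts at the right of each panel. The 10 sinusoidal genes stand at 3 higher, then 1 higher and 1 lower, then 4 lower, and the monocyte and macrophage list at 9 of 9 higher, 7 of 10 lower and 8 of 10 lower.

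Cells other than endothelium carry some of the members, and their marker lists moved with the groups. The 10 monocyte and macrophage markers summed to 145.8 to 147.9 CPM on chow, 454.8 to 538 in NASH GFP, 177.1 to 200.5 under Activin A, 400.1 to 493 with scramble and 192.8 to 256.3 with the hairpin. Lyve1 moved with this list in the diet and Activin A comparisons. The median log2 fold changes of several other lists went the same way. They were 3.53 and -1.88 for lipid-associated macrophages and 1.42 and -1.30 for cholangiocytes. For proliferation genes they were 1.86 and -1.05, and for erythroid genes 1.52 and -0.90. Not every list did so, with the lymphatic list at 0.58 and 0.38 and the hepatocyte list at -0.62 and 0.49. In the hairpin comparison 8 of 10 macrophage markers fell, led by Lyz2 (-1.35 ± 0.11), while Lyve1 was at -0.20 ± 0.23. The members called lower there were Stab1 (-0.36 ± 0.08), Pecam1 (-0.42 ± 0.11), Cdh5 (-0.43 ± 0.12) and Clec4g (-0.28 ± 0.09). Of 2 platelet markers tested with the hairpin, 0 were called by edgeR and 1 was lower by DESeq2.

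Macrophages of the perivascular kind that carry Lyve1 had 7 listed markers, which summed to 42.1 to 56.3 CPM on chow, 60.0 to 80.7 in NASH GFP, 63.0 to 76.6 under Activin A, 91.3 to 98.6 with scramble and 87.2 to 103.2 with the hairpin. Of 6 tested, F13a1 was higher in NASH GFP by edgeR (1.92 ± 0.58), and 0 were called by DESeq2. F13a1 was low, averaging 0.256 CPM on chow and 0.948 CPM in NASH GFP. Under Activin A 0 were called by edgeR (0 by DESeq2, 1 at an unadjusted p under 0.05). With the hairpin, of 5 tested, Cd163 was higher (0.66 ± 0.18) and Mrc1 lower (-0.24 ± 0.08). The list shares Mrc1 with the sinusoidal list and Cd163, Folr2 and Timd4 with the Kupffer cell list. The 8 Kupffer cell markers summed to 110.7 to 172.6 CPM on chow, 249.9 to 371.4 in NASH GFP, 178.8 to 253.3 under Activin A, 359.1 to 366.9 with scramble and 219.7 to 300.2 with the hairpin. Of these, 3 of 8 were higher in NASH GFP, led by Cd5l (2.04 ± 0.22). Cd5l was lower under Activin A (-1.25 ± 0.21), where Fcna was higher (0.62 ± 0.15).

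Lymphatic endothelium also carries Lyve1. Most of the sum of its 7 listed markers came from Prox1, which hepatocytes also express (142, 139 and 189 CPM on average on chow, in NASH GFP and under Activin A), and from Reln, so the sum does not follow lymphatic cells alone. Mmrn1 averaged at most 0.919 CPM and Pdpn at most 0.643 CPM in any group. The 7 markers summed to 169.8 to 251 CPM on chow, 252.4 to 282 in NASH GFP, 306.9 to 378.9 under Activin A, 345.3 to 375.3 with scramble and 311.3 to 320.5 with the hairpin, with Ccl21a at 0 counts in all libraries of the Activin A and hairpin groups. In NASH GFP 3 of 5 tested were higher (Nrp2, Flt4 and Reln), of which Flt4 is also a sinusoidal gene and Reln also a stellate cell gene. Under Activin A 0 of 5 were called by edgeR (0 by DESeq2, 3 at an unadjusted p under 0.05). The 11 markers of vein and artery endothelium, which carries Pecam1 and Cdh5, summed to 87.1 to 96.8 CPM on chow and 92.4 to 96.5 in NASH GFP, with Cd34 and Gja4 (1.03 ± 0.24) higher of 9 tested. They summed to 109.6 to 120.5 CPM with scramble and 81.6 to 92.2 with the hairpin, where Vwf (-0.80 ± 0.18) and Nr2f2 (-0.43 ± 0.10) were lower. The 10 stellate cell markers summed to 242.4 to 296.2 CPM on chow, 440.9 to 608.5 in NASH GFP, 480 to 497 under Activin A, 507 to 578 with scramble and 400 to 451.8 with the hairpin, where 7 of 10 fell.

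Lists of cells not known for the members moved as well. Of the hepatocyte markers, Serpina1c (-1.68 ± 0.24) and Ttr (-0.75 ± 0.21) were lower in NASH GFP, Ttr was higher under Activin A (1.03 ± 0.11) and Serpina1c higher with the hairpin (0.76 ± 0.15), each of 5 tested. Of the erythroid markers, Hbb-bs (1.85 ± 0.44) and Hba-a1 (1.70 ± 0.42) were higher and Alas2 (-0.96 ± 0.14) lower in NASH GFP, of 4 tested. With the hairpin 4 of 5 erythroid markers were lower, among them Hbb-bt (-2.12 ± 0.34) and Hbb-bs (-1.96 ± 0.27), and Alas2 was higher (0.35 ± 0.11). The part of all these cell types in the members' changes was not tested.

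Some members overlap another gene in the annotation. Gpr182 overlaps Zbtb39 on the opposite strand (up to 21.7 CPM) and Stab1 overlaps Nt5dc2 on the opposite strand (up to 17.3 CPM). The library kit was stranded, but no source used here says whether counting used strand, so reads of these neighbours may be shared.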

How the data were processed

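The authors deposited 3 tables, 1 per comparison, with raw counts per gene for 6 libraries each and their own log2 fold changes and p-values, per the file headers. The authors' log2 and p-value columns were read but not used for any statement here. The build was GRCm38 (mm10), per the submitters' processing notes. Aligner and counter are not given in sources used here. Gene symbols stored as dates (21 or 22 per table) were restored, and the NASH GFP counts were the same in both tables that hold them for all 23148 shared genes. Each comparison was fitted on its own 6 libraries with edgeR 4.0.16 in R 4.3.3 (filterByExpr with a minimum count of 10, TMM factors, quasi-likelihood test, Benjamini-Hochberg over all genes tested, threshold 0.05). Contrasts across tables used the 15 libraries joined. SE is the absolute log2 fold change over the square root of F. Log2 CPM used a prior count of 2. The scripts were tested on simulated data. Totals of 15276879 to 23467867 counts set the precision, with Lyve1 at 49 counts in its lowest library. All 10 members are named, and from each list the called genes with the smallest p, at most 3 per direction. Some list genes outside this rule, such as Vegfa and Prox1, are named as well. For likeness, the 3 nearest genes are named, among genes whose log2 CPM averaged 1 or more. The members and lists were chosen with earlier results of these data known. Cemip2, Rspo2, Rspo4 and Tf are listed but are not among the genes analysed here. Alternatives were RLE factors, library size alone, no filter, DESeq2 1.42.0, a replicate block, other sets of libraries and each library left out.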

Additional observations from a re-analysis of the deposited data

How the results depend on the processing

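Depth limits Lyve1 and Rspo3 most, the members with the lowest counts (49 and 62 in their lowest library). Replicate numbers do not pair the libraries: deviations of same-numbered libraries correlated from -0.13 to 0.029 over the 3 comparisons, and not every library correlated best with its own number. With the replicate block Clec4g no longer passed under Activin A (edgeR adjusted p = 0.0876) or with the hairpin (0.0549), nor did Cdh5 with the hairpin (0.0502). With the replicate block the calls among members were 1 in place of 2 (Activin A) and 2 in place of 4 (hairpin), and genes called fell from 2445 to 1597 in the diet comparison. With library size alone, members called were 5 in place of 3 (diet), 1 in place of 2 (Activin A), 10 and 8 in place of 5 (scramble and Activin A against chow) and 1 in place of 0 (Activin A effect minus hairpin effect). Genes called higher were then 2668 (diet), 5160 (scramble against chow) and 3414 (Activin A against chow). In the effect difference 306 genes were called higher and 291 lower. The log2 values of Clec4g (diet, 0.23) and Rspo3 (hairpin, -0.081) changed sign, while median shifts of all genes were 0.238, 0.304, 0.210, 0.221 and -0.105 (diet, the 3 contrasts with chow, hairpin). In 1 fit of all 15 libraries, members called were 1 (Activin A) and 2 (hairpin), and genes called 4500 (diet) and 1881 in place of 3601 (hairpin). Without the filter and with DESeq2, genes called under Activin A were 1253 and 1258 in place of 806, and 2 members were called in scramble against GFP and in the effect difference, where the groups of the contrast alone called 1. In scramble against GFP 256 genes were then higher and 378 lower without the filter, and 195 and 360 with DESeq2. In the effect difference 473 were higher and 472 lower without the filter, and 451 and 533 with DESeq2. Leaving out 1 library gave 1355 to 2233 genes called (diet), 248 to 1435 (Activin A) and 1923 to 3496 (hairpin). Over the same fits, members called were 1 to 2 (Activin A), 1 to 4 (hairpin), 2 to 6 (Activin A against chow), 0 to 1 (scramble against GFP) and 0 to 1 (effect difference). Sign changes on leaving out a library were limited to members that had not passed. Their log2 fold changes ranged from -0.19 to 0.17 for Clec4g and -0.080 to 0.34 for Oit3 (diet), and -0.14 to 0.080 for Stab1 (Activin A). With the hairpin the ranges were -0.30 to 0.0049 for Stab2, -0.60 to 0.012 for Lyve1, -0.31 to 0.057 for Kdr, -0.20 to 0.057 for Gpr182 and -0.093 to 0.21 for Rspo3. Clec4g ranged from -0.089 to 0.25 in scramble against chow, and Lyve1 from -0.23 to 0.19, Pecam1 from -0.15 to 0.016 and Gpr182 from -0.070 to 0.24 in scramble against GFP. Relative to the median of the pan-endothelial list, Oit3 under Activin A (-0.015) and Rspo3 in the diet comparison (0.10) changed sign, and the separation of the groups was lost for Oit3, Kdr and Gpr182 (diet), Clec4g, Gpr182 and Cdh5 (Activin A), Stab2 (hairpin) and the list itself (diet and hairpin). Of the fold changes of members under all alternatives, 920 kept direction and side of the threshold, 43 newly passed it, 33 no longer passed it and 24 changed sign.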
